A study of Mus musculus with 30 samples.

Results

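Intestinal manipulation (IM), the standardized gentle rolling of the exposed small bowel during abdominal surgery, is the usual mouse model of postoperative ileus, a temporary arrest of gut motility. The muscularis externa (ME) is the outer wall of the gut: 2 layers of smooth muscle with the myenteric plexus of enteric neurons and glia between them, interstitial cells of Cajal that pace the muscle, and a network of resident macrophages. The comparison described here is that of total RNA from the whole ME at 72 h after IM (IM72h, 4 libraries) with total RNA from the ME of mice labelled naive (3 libraries). Its members were chosen by the operation label alone, and all 24601 genes of the count table were used, of which 16592 had enough counts to be tested. These 7 libraries belong to 14 libraries of total ME RNA, which also cover 3 h (IM3h, 3 libraries) and 24 h (IM24h, 4 libraries), within a series of 30 samples whose other libraries hold glial RiboTag RNA and are not used here.

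All mice carried the RiboTag allele (B6N.129 Rpl22tm1.1Psam/J), a tagged ribosomal protein that is switched on by Cre recombinase. According to the labels, naive and IM3h mice carried it together with the Gfap-cre transgene of B6.Cg-Tg73.12Mvs/J, whereas IM24h and IM72h mice carried it with the tamoxifen-inducible B6 Tg(Sox10-icre/ERT2)388Wdr/J, in which enteric glia express the recombinase. The mice were male according to the methods of the study. The Y-linked gene Ddx3y was read in every library, at 109 to 129 CPM (counts per 1000000 of the scaled library size) in naive and 105 to 125 in IM72h libraries. Cre line, and with it any tamoxifen treatment, therefore changed together with the operation, and their shares in the differences below cannot be told apart. IM72h against IM24h is the single contrast of IM72h within 1 labelled line. The library names also fall into separate number ranges, 1 for naive and IM3h, 1 for IM24h and 1 for IM72h. What these ranges stand for is not given in the sources used here, and they cannot be told apart from the groups in either contrast. Library numbers follow the sorted library names of each group. The figure legends of the study count the samples of its ME RNA sequencing as mice. Nothing in the labels says more of how the samples of a group were drawn, so p-values measure the spread between these samples, technical spread included.

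The naive libraries held 6603170 to 9862170 counts and the IM72h libraries 9779868 to 12866062. Their RNA make-up differed. Genes annotated as, or overlapping, ribosomal RNA took 25.4%, 42.6% and 23.0% of the counts in the naive libraries and 3.02% to 4.69% in the IM72h libraries, and genes of the mitochondrial genome took 13.7% to 18% against 6.13% to 9.07%. The IM3h libraries lay with the naive ones and the IM24h libraries in between, except that the mitochondrial share of IM24h library 4 (14.2%) exceeded that of naive library 2 (13.7%). To compare genes beside this shift, counts were scaled by trimmed means (TMM), and levels are given as TMM-scaled CPM. The median log2 fold change over all genes was 0.62 when only the library total was used, and the reference genes Actb, Hsp90ab1 and Rplp1 gave -0.58, where Rplp1 itself was higher at IM72h under TMM. Under TMM the median was 0.02, so changes below are to be read relative to the bulk of genes.

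**Figure D1:**
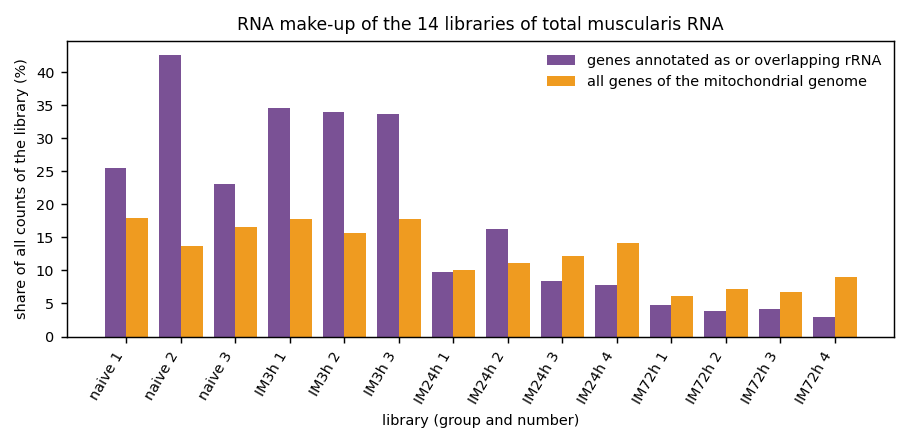
Share of all counts (y axis, %) taken by genes annotated as or overlapping rRNA (purple bars) and by all genes of the mitochondrial genome (orange bars; the 2 mitochondrial rRNAs are in both) in each of the 14 libraries of total ME RNA (x axis). The purple bars are at 23.0% or more in the naive and IM3h libraries and at 4.69% or less in the IM72h libraries.

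The tissue label was checked against marker genes. A list of 20 smooth muscle genes together held 72012 to 76442 CPM in the naive and 43016 to 62199 CPM in the IM72h libraries, whereas 17 genes of the mucosal epithelium, from which the muscle layer was separated by hand, held 433 to 1645 and 692 to 1717 CPM. Over the 14 libraries the first principal component (32.5% of the variance) separated naive (-63.80 to -55.66) from IM72h libraries (74.82 to 100.70), with IM72h library 4 the lowest of the IM72h group.

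At IM72h, 4855 genes were higher and 4689 lower than in naive ME (adjusted p under 0.05, edgeR quasi-likelihood test with Benjamini-Hochberg adjustment over all genes tested), which are 29.3% and 28.3% of the genes tested. With a change of more than 2-fold in addition, 2767 (16.7%) were higher and 2534 (15.3%) lower. All 4 IM72h libraries lay above all 3 naive libraries for 30.0% of genes and below them for 28.7%. Any count within a gene group is read against these shares. For the other times, which are used below for side by side values, 19.3% of 15333 genes were higher and 13.4% lower than naive at IM3h, and 15.6% of 16328 higher and 13.4% lower at IM24h. From IM24h to IM72h, 3024 of 16281 genes tested rose (18.6%) and 3248 fell (19.9%). With the library total as the scale 8509 genes were higher and 1964 lower, and with the reference genes 2013 were higher and 7981 lower, so that the share of lower genes among all calls ran from 18.8% to 79.9% around the 49.1% under TMM. Counts within lists moved with the scale too. For the library total and the reference genes in turn, 2 and 16 smooth muscle genes, 6 and 16 neuronal genes, 8 and 32 respiratory chain genes and 11 and 23 genes of muscle excitability were lower. With the library total 5 smooth muscle, 6 neuronal, 11 respiratory chain and 4 excitability genes were higher, so that smooth muscle and respiratory chain calls turned mostly upward. In the same order 28 and 12 matrix genes, 9 and 4 endothelial genes, 64 and 20 ribosomal protein genes and 39 and 38 genes of DNA replication and mitosis were higher.

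**Figure D2:**
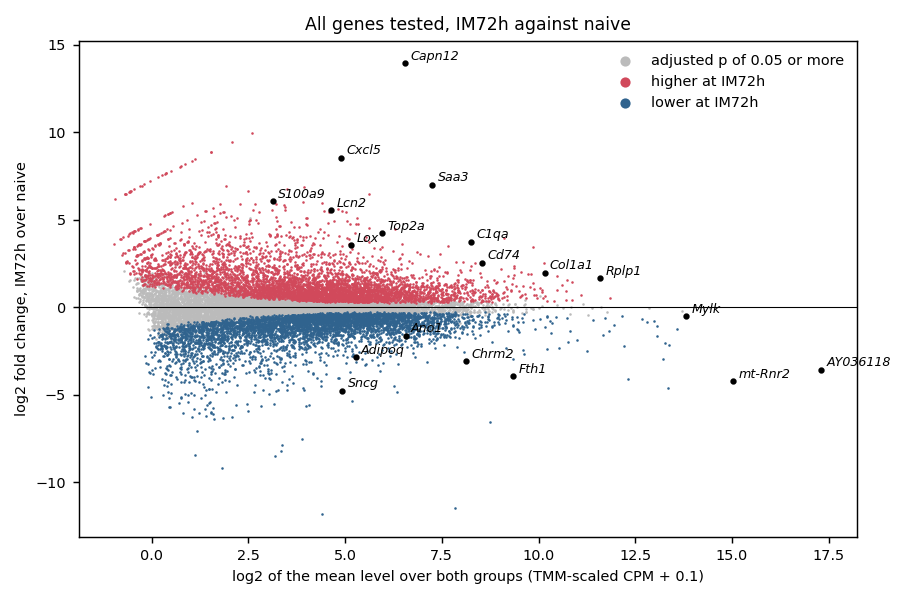
Log2 fold change of IM72h over naive (y axis) against the log2 mean level over both groups (x axis, TMM-scaled CPM + 0.1) for the 16592 genes tested. Red and blue points are genes with an adjusted p under 0.05, black points are named genes, and the slanted rows of red points at the left are genes with 0 to a few counts in the naive libraries.

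Genes of the cell division machinery were raised almost throughout. Of 40 genes for DNA replication and mitosis, 38 rose, all by more than 2-fold, and none fell, with a median log2 fold change of 3.49 (3.34 with the 3 members near 0 in naive ME set to their lower bound) beside 0.02 over all genes. Top2a, the topoisomerase that untangles replicated DNA, was at 8.31, 5.12 and 5.0 CPM in the naive libraries and at 132, 120, 102 and 118 CPM at IM72h. It rose 18.9-fold (chr11:98992943-99024189, minus strand in GENCODE vM21 on mm10; log2 fold change 4.24, SE 0.20, adjusted p = 2.66e-07). Birc5 (survivin), a member of the chromosomal passenger complex, was at 2.48, 1.78 and 2.25 CPM in naive and 95.6, 86.9, 67.3 and 56.8 CPM in IM72h ME, a rise of 34.3-fold (SE 0.25 on the log2 scale, adjusted p = 2.94e-07). For Ccnb2, a mitotic cyclin, no naive library held more than 3 counts, and the IM72h libraries were at 24.8, 19.3, 17.1 and 21.9 CPM, at least 44.1-fold higher. In all of these genes the groups were far apart, although Birc5 ranged from 56.8 to 95.6 CPM within IM72h.

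Members differed in the size of their rise. The replication licensing genes Mcm2 to Mcm7 rose by 1.5 to 3.19 on the log2 scale, and Pcna, the sliding clamp of DNA polymerase, by 1.34. Among mitotic genes, log2 fold changes were 2.65 for the checkpoint gene Bub1b, 4.91 for Aurka, 5.47 for Plk1 and 5.60 for Cenpa. Replication genes were not tested against mitotic genes. The 2 members that did not pass the test were Kif20a, at 17.9 CPM in both groups, and Gins2, at 15.4 and 16.8 CPM. Kif20a and Gins2 are each overlapped by a protein-coding gene on the opposite strand (Cdc23 and Gse1), and whether the counting used strand is not given in the sources used here, so reads of both partners cannot be told apart. Such an overlap also holds for genes called below, among them Csf1r, B2m, Grn, Plvap, Junb and Timp3. At IM24h, 25 of 39 tested members were already above naive ME, where 15.6% of all genes were, with a median of 1.69, and 25 of 40 rose further from IM24h to IM72h, where 18.6% of all genes did.

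Many cell cycle promoters carry a CCAAT box and, close to the start, the cell cycle homology region, of which TTTGAA is the core. RefSeq promoter windows of 300 bases around the gene start (GRCm38.p6) were given for 33 of the 40 genes. On either strand TTTGAA was found in 16 of these (48.5%) and CCAAT in 27 (81.8%), against 12.1% and 38.3% of the 11450 windows of all genes tested. Of the 3 genes described above, the window of Birc5 holds neither motif, and those of Top2a and Ccnb2 are shown, with TTTGAA and CCAAT, or their reverse complements TTCAAA and ATTGG, in capitals. The Top2a window is chr11:99024140-99024439 and the Ccnb2 window chr9:70421505-70421804, both read from the minus strand.
Top2a: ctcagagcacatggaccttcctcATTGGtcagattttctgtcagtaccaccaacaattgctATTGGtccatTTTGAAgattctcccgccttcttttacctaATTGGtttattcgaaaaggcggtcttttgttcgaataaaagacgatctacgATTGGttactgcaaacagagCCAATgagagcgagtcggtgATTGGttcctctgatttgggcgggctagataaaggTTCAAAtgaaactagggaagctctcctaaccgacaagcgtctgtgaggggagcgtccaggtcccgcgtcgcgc
Ccnb2: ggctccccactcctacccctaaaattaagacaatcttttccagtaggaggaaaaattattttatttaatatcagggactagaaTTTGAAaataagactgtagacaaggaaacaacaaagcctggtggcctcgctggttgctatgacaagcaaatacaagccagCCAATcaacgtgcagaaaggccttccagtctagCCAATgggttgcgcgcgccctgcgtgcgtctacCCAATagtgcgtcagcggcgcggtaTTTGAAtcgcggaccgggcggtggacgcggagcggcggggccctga
A match describes the letters in these windows and not the binding of a factor.

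Macrophage genes rose, those of the resident network and those of recruited cells alike. Of 15 tested genes of resident macrophages 13 rose and 1 fell (median log2 fold change 1.76), and the summed level of the list went from 190 to 200 CPM in naive to 597 to 696 CPM in IM72h libraries. In bulk RNA, more cells of a type and more RNA per cell cannot be told apart, here and in every group below. Csf1r, the receptor for the macrophage growth factor CSF1, was at 47.6, 48.5 and 45 CPM in naive and 81.6, 122, 103 and 117 CPM in IM72h libraries (log2 fold change 1.17, SE 0.15, adjusted p = 6.48e-05). Mrc1, the mannose receptor CD206, was at 26.9 to 27.3 CPM and then at 161, 139, 112 and 79.6 CPM (2.18, SE 0.22, adjusted p = 1.44e-05). Every IM72h library was above every naive one for both genes. The member that fell was Folr2, from 3.66 to 1.40 CPM (adjusted p = 0.00795).

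Of 17 genes of recruited and repair macrophages 13 rose, all by more than 2-fold, and 3 fell (median 2.85). Ccr2, the chemokine receptor of inflammatory monocytes, rose from 10.8 to 77.9 CPM. Mmp12, macrophage elastase, was at 0, 0 and 0.50 CPM in naive and 27.4, 8.12, 9.87 and 4.01 CPM in IM72h libraries (log2 fold change 5.90, SE 1.01, adjusted p = 4.99e-04), a wide spread within IM72h that still left the groups apart. The members that fell were Retnla (-1.74), Cd36 (-1.59) and Fabp5 (-0.68), of which Cd36 and Fabp5 encode fatty acid handling proteins that other cells also make. Cd9, at 99.8 to 155 CPM over both groups, did not pass the test. From IM24h to IM72h 1 of the 17 genes rose and 8 fell, where 18.6% and 19.9% of all genes did.

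Neutrophil genes were still raised at 72 h but at low levels. Of 8 tested genes 7 rose, all by more than 2-fold, and the summed level of the list was 7.07 to 9.99 CPM in naive and 86.7 to 146 CPM in IM72h libraries. The median log2 fold change was 4.56, or 3.07 with the 5 members near 0 in naive ME at their lower bound. Lcn2 (lipocalin 2), an iron-binding defence protein that other inflamed cells also release, was at 0.992, 1.33 and 0.874 CPM in naive and 68.0, 47.3, 33.3 and 44.2 CPM in IM72h libraries, a rise of 46.4-fold (SE 0.33 on the log2 scale, adjusted p = 5.94e-07). S100a9, a calcium-binding protein of granulocytes, held at most 3 counts in each naive library and 32.8, 10.5, 15 and 9.92 CPM at IM72h, at least 36.2-fold higher. The granule gene Camp, at 1.54 and 1.30 CPM, did not pass the test. Lcn2 fell by 1.68 on the log2 scale from IM24h to IM72h (SE 0.35, adjusted p = 0.00315).

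Genes of antigen presentation were higher than in naive ME and than at IM24h. Of 9 tested MHC class II genes 8 rose (median 2.35), and 6 of 9 rose from IM24h to IM72h. At IM3h 5 of 7 tested members had been above naive ME and at IM24h 3 of 8 (beside 19.3% and 15.6% of all genes), with smaller changes at IM3h for Cd74 (0.66), H2-Aa (0.60) and B2m (0.70). Cd74, the invariant chain that guides MHC class II molecules, was at 111, 106 and 108 CPM in naive and 518, 531, 692 and 792 CPM in IM72h libraries (log2 fold change 2.55, SE 0.17, adjusted p = 1.09e-06). Scaled over all 14 libraries, Cd74 was at 105 to 160 CPM in the IM24h libraries, all below the lowest IM72h library at 525 CPM, and the difference was 2.20 (SE 0.19, adjusted p = 2.73e-05). H2-Aa, the alpha chain of the I-A molecule, went from 76.8 to 108 CPM to 425 to 712 CPM (2.53, SE 0.20, adjusted p = 2.75e-06). The class I light chain B2m likewise went from 978 to 1028 CPM to 2434 to 3017 CPM (1.44, SE 0.12, adjusted p = 5.10e-06).

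Genes of T cells and dendritic cells were at low levels. Of 12 tested T and NK cell genes 6 rose and none fell, with a summed level of 8.87 to 12.7 CPM in naive and 21.3 to 28.6 CPM in IM72h libraries. Of 9 members tested without IM72h library 4 and of 12 tested without naive library 3, 3 were called higher. With the library total as the scale 10 were called higher, and with the reference genes edgeR called 0 (2 at an unadjusted p under 0.05). Trac, the constant chain of the T cell receptor, was at 1.24, 1.56 and 2.0 CPM in naive and 3.48, 4.93, 4.71 and 4.34 CPM in IM72h libraries (log2 fold change 1.44, SE 0.30, adjusted p = 0.00201, but 0.0702 with all 14 libraries in the fit). The dendritic cell genes Xcr1, Flt3 and Cd209a rose, each from below 1 CPM to between 1.48 and 1.80 CPM (Xcr1 with an adjusted p of 0.176 with all 14 libraries in the fit), while Zbtb46 and Clec9a did not pass the test. With the library total as the scale all 5 of these dendritic cell genes were higher, and with the reference genes 1. Among B and plasma cell genes Cd79b and Cd22 rose (2 of 7, a share close to the 29.3% of all genes). When single libraries were left out, 1 to 4 of the 6 or 7 tested were higher. With the library total as the scale 5 were higher, and with the reference genes 1. Cd79b had an adjusted p of 0.0625 with all 14 libraries in the fit. The immunoglobulin genes Igha (68.1 to 283 CPM in naive, 132 to 387 CPM in IM72h) and Igkc overlapped between the groups. The mast cell tryptase Tpsb2 and the eosinophil lectin Siglecf were the 2 tested members of their list, at 2.01 and 1.25 CPM at IM72h.

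Of 33 tested cytokine and chemokine genes 22 rose and 4 fell (median 1.79, or 1.28 with 4 members near 0 at their lower bound). Cxcl5, a chemokine for neutrophils, was among the largest rises of all genes: it held 0, 2 and 1 counts in the naive libraries and was at 90.7, 43.6, 45.3 and 58.5 CPM at IM72h, at least 126-fold higher. It did not pass the test between IM24h and IM72h (log2 difference 0.26, SE 0.33, adjusted p = 0.568). Ccl2, which attracts monocytes, was at 1.93 CPM in naive and 64.5 CPM in IM72h ME, after 181 to 536 CPM in the IM24h libraries on the scale of all 14. The acute cytokine Il1b, on that scale, was at 0.360 to 0.623 CPM in naive, 8.94 to 78.0 CPM at IM24h and 2.35 to 8.01 CPM at IM72h. From IM24h to IM72h 4 of 32 tested genes of the list rose and 13 fell, beside 18.6% and 19.9% of all genes. Pdgfa (150 to 65.6 CPM), Cxcl14, Tgfb2 and Vegfa were the members below naive ME at IM72h. Igf1, a growth factor of repair, was at 44.9, 69.0 and 74.3 CPM in naive and 94.8 to 116 CPM in IM72h libraries (0.75, SE 0.17, adjusted p = 0.00269).

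Complement, interferon response and lysosomal genes were higher. Of 16 complement genes 10 rose and 3, among them C2 and Serping1, fell, and the 4 largest rises were those of the 3 chains of C1q, the recognition molecule of the classical pathway that tissue macrophages make, and of Cfp (properdin), which stabilizes the alternative pathway. C1qa was at 39.6, 44.7 and 42.8 CPM in naive and 626, 643, 607 and 418 CPM in IM72h libraries, a rise of 13.5-fold (log2 fold change 3.76, SE 0.18, adjusted p = 2.76e-07), and C1qb rose 11.4-fold. C3, the central component, was at 248 to 299 CPM and 276 to 356 CPM and did not pass the test. Of 21 interferon response genes 15 rose and 1, Ifit2, fell (4.85 to 0.998 CPM). Isg15, a ubiquitin-like interferon product, was at 3.56 to 4.75 CPM in naive and 27.0 to 52.2 CPM in IM72h libraries (3.12, SE 0.26, adjusted p = 3.97e-06). Of 27 genes of the lysosome and of phagocytosis 23 rose and 1, Acp5, fell, and the summed level went from 2495 to 2690 CPM to 4926 to 5398 CPM. Grn (progranulin) rose 2.79-fold at IM72h (adjusted p = 5.59e-06) although it was lower than naive at IM24h (-0.86, SE 0.17, adjusted p = 0.00437). The scavenger receptor Marco held at most 1 count in each naive library and was at 1.97 to 7.82 CPM at IM72h, at least 8.97-fold higher.

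Of 33 genes for collagens and matrix 24 rose and 4 fell (median 0.79, 0.21 under the reference gene scale), and the summed level went from 5796 to 6032 CPM to 10301 to 12713 CPM. Col1a1, the main chain of type I collagen, was at 455, 446 and 489 CPM in naive and 1911, 1711, 1682 and 1956 CPM in IM72h libraries (log2 fold change 1.97, SE 0.12, adjusted p = 7.05e-07). At IM24h Col1a1 had not passed the test against naive ME (-0.07, SE 0.31, adjusted p = 0.887), and it rose by 2.04 from IM24h to IM72h (SE 0.28, adjusted p = 3.11e-04). Lox, the lysyl oxidase that cross-links collagen and elastin, was at 5.71, 4.89 and 6.12 CPM and then at 82.4, 56.8, 57.2 and 67.1 CPM (3.54, SE 0.19, adjusted p = 3.72e-07). Col5a1, Col6a3, Loxl2, Tnc, Eln and Fn1 rose as well, by 1.19 to 2.22 on the log2 scale, and Col3a1 and Col4a1 did not pass the test. Serpinh1, a collagen chaperone, and Postn, Col11a1 and Thbs1 fell, the 4 becoming 2 without naive library 3.

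Proteases that cut the matrix, and their inhibitors, were higher for 15 of 19 tested genes (median 2.02). Timp1, an inhibitor of metalloproteases whose gene lies opposite Syn1, rose from 2.90 to 77.1 CPM, Mmp14, the membrane-bound metalloprotease, from 101 to 407 CPM, and Plaur, the urokinase receptor, from 0.248 to 0.624 CPM to 11.2 to 16.0 CPM (log2 fold change 4.82, SE 0.34, adjusted p = 1.34e-06). Timp3 fell, from 567 to 646 CPM to 303 to 344 CPM (-0.84, SE 0.11, adjusted p = 7.81e-05), and Timp2 did not pass the test. Of 10 fibroblast markers 6 were higher and 3 lower, with 7 and 1 for the library total and 4 and 4 for the reference genes as the scale: Cd34, Ly6a, Lum and Mfap5 rose by 1.34 to 2.14, Dpt fell by 1.12 on the log2 scale, and Dcn stayed within 826 to 1023 CPM in the IM72h libraries against 931 to 1016 CPM in naive (adjusted p = 0.393). Of 12 endothelial genes 8 rose and none fell. Plvap, a protein of fenestrated and activated vessels, was at 7.69, 10.5 and 6.37 CPM in naive and 55.2, 47.1, 40.1 and 53.7 CPM in IM72h libraries (2.62, SE 0.19, adjusted p = 1.84e-06).

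**Figure D3:**
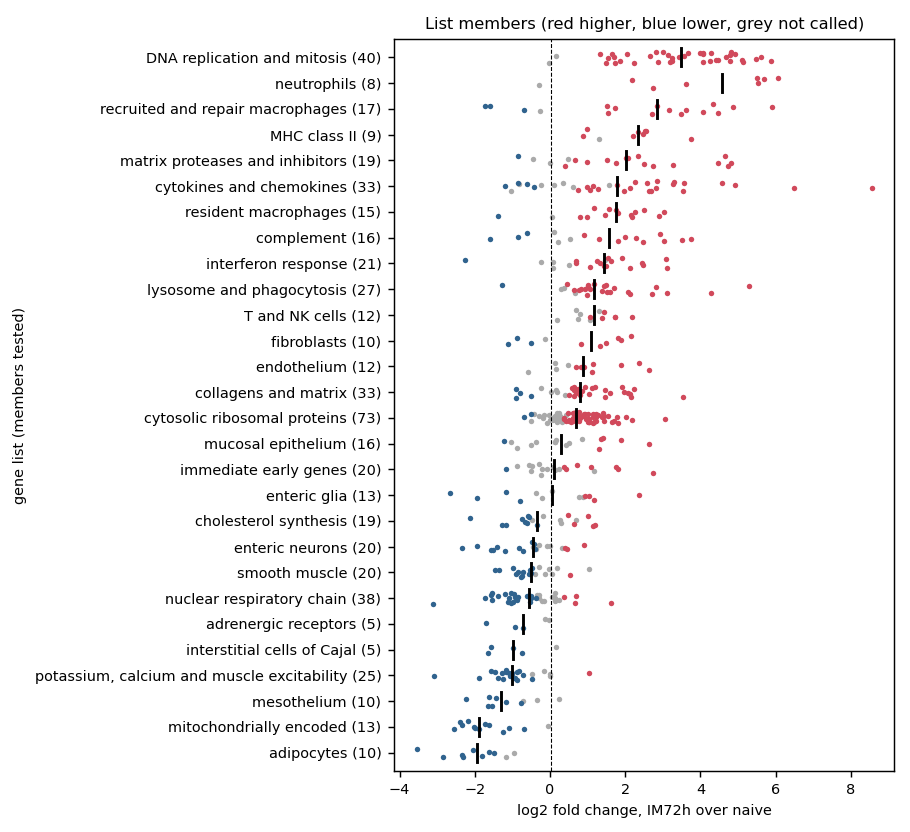
Log2 fold change of IM72h over naive (x axis) for each tested member of 28 gene lists (y axis, number tested in brackets), with red points for higher, blue for lower and grey for genes that did not pass the test. Black bars are list medians under TMM scaling, from 4.56 for neutrophils to -1.93 for adipocytes, and the dashed line is the median of all genes, 0.02; with the library total as the scale the medians of smooth muscle, enteric neurons, nuclear respiratory chain and cholesterol synthesis were above 0, and with the reference genes those of mucosal epithelium, immediate early genes and enteric glia were below 0.

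Smooth muscle genes were lower than in naive ME and higher than at IM24h. Of 20 smooth muscle genes, a list that also holds the channel genes Cacna1c and Kcnmb1, 12 were lower and 1, the actin cross-linker Flna, was higher. The median was -0.51, but 0.09 when scaled to the library total alone. Acta2, smooth muscle actin, was at 10111, 9753 and 10845 CPM in naive and 5177, 5712, 5565 and 7880 CPM in IM72h libraries (log2 fold change -0.75, SE 0.16, adjusted p = 0.00208), all IM72h libraries lying below all naive ones. Mylk, the kinase that switches on contraction, was at 18128, 13674 and 19144 CPM in naive and 9582, 12927, 12184 and 13199 CPM in IM72h libraries. That difference (-0.50, adjusted p = 0.0229) was no longer called in 4 of the 7 fits without a library or with all 14 libraries in the fit (adjusted p = 0.142), and its sign turned to 0.08 with the library total as the scale. The contractile genes Des, Csrp1, Smtn, Cnn1, Actg2, Actc1 and Myl9 did not pass the test. At IM24h 15 of 19 tested genes had been below naive ME (median -1.36, beside 13.4% of all genes), and from IM24h to IM72h 11 rose and 1 fell, Mylk by 2.02 (SE 0.27, adjusted p = 2.66e-04) and Acta2 by 1.10 (SE 0.31, adjusted p = 0.0156).

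Genes of ion channels, calcium handling and muscle receptors were lower. Of 25 tested genes 20 were lower and 1 was higher, with a median of -1.01 (-0.39 with the library total as the scale), and from IM24h to IM72h 2 of 25 rose and 7 fell, beside 18.6% and 19.9% of all genes. Chrm2, the muscarinic M2 receptor for acetylcholine and the more abundant muscarinic receptor of gut muscle, was at 525, 440 and 527 CPM in naive and 58.2, 50.5, 66.7 and 57.6 CPM in IM72h libraries, and fell 8.54-fold (log2 fold change -3.09, SE 0.13, adjusted p = 1.75e-07). Chrm2 was lower at IM72h than at IM24h too (-1.45, SE 0.17, adjusted p = 1.07e-04). Chrm3, the muscarinic M3 receptor, was at 17.0 and 16.6 CPM and did not pass the test. Cacna1c, the pore of the L-type calcium channel, was at 67.7, 111 and 89.2 CPM and then at 27.6, 31.6, 32.4 and 38.4 CPM (-1.45, SE 0.17, adjusted p = 3.85e-05), and is overlapped by Dcp1b on the opposite strand. The calcium pumps Atp2b4 (1695 to 913 CPM) and Atp2a2 (525 to 295 CPM), phospholamban (Pln, 177 to 59.7 CPM), both subunits of the nitric oxide receptor (Gucy1a1 and Gucy1b1, -1.27 and -1.37) and the gap junction gene Gja1 (-1.06) were lower as well.

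A CArG box, the site of serum response factor in many contractile genes, was found in 2 of 16 given promoter windows of the smooth muscle list (12.5%) and in 1.3% of all windows. The windows belong to Actc1 and Myl9. The Myl9 window (chr2:156775214-156775513, plus strand) is shown with the box in capitals. Myl9, a regulatory light chain of myosin, was at 3770, 3819 and 3984 CPM in naive and 2556, 3066, 3004 and 4021 CPM in IM72h libraries, with overlap between the groups.
Myl9: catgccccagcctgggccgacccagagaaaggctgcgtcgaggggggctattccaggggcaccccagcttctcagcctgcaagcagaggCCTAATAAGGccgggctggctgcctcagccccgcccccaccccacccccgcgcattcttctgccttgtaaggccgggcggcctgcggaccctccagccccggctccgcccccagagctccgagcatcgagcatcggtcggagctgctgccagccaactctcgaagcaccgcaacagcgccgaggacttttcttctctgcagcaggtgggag

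Genes of the pacemaker cells were lower. Of 5 genes of interstitial cells of Cajal 4 fell (median -0.99). Ano1, the calcium-activated chloride channel that carries the pacemaker current, was at 148, 133 and 149 CPM in naive and 39.6, 45.4, 49.0 and 50.5 CPM in IM72h libraries (log2 fold change -1.64, SE 0.12, adjusted p = 1.62e-06), and Kit, the receptor these cells need to survive, went from 81.1 to 40.8 CPM (-0.99, SE 0.12, adjusted p = 5.28e-05). Etv1, their transcription factor, was at 124 to 138 CPM and then at 71.5 to 82.2 CPM (-0.75, SE 0.11, adjusted p = 1.30e-04), and was lower at IM72h than at IM24h (-0.82, SE 0.14, adjusted p = 0.00131). Among 3 markers of the PDGFRA-positive interstitial cells, Kcnn3 fell (-0.70, SE 0.12, adjusted p = 4.81e-04), while Pdgfra (82.7 to 90.7 CPM against 93.4 to 102 CPM) and P2ry1 did not pass the test.

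Of 20 enteric neuron genes 11 were lower and 3 higher (median -0.44, 0.15 with the library total as the scale). The RNA-binding protein gene Elavl4 (HuD) went from 138 to 52.2 CPM, Nos1, which makes the inhibitory transmitter nitric oxide, from 67.4 to 29.5 CPM, and Stmn2 from 132 to 46.5 CPM. Calcb, a neuropeptide of the CGRP family, was at 22.9, 13.8 and 27.1 CPM and then at 2.97, 4.55, 3.64 and 5.65 CPM (log2 fold change -2.34, SE 0.26, adjusted p = 3.02e-05). Other neuronal genes were not lower: Tubb3, Prph, Snap25 and Ret did not pass the test, and Vip, Npy and Uchl1 were higher by 0.40 to 0.91, of which Uchl1 turned to -0.17 under the reference gene scale and had an adjusted p of 0.0737 with all 14 libraries in the fit. Without naive library 2, and without naive library 3, 1 gene of the list was higher. The neuropeptide Gal was at 170 to 246 CPM and then at 228 to 326 CPM (adjusted p = 0.140), after 331 to 593 CPM in the IM24h libraries on the scale of all 14 libraries.

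Of 13 enteric glia genes 4 were higher and 4 lower, shares close to those of all genes, and with the reference genes as the scale 2 were higher and 6 lower. Gfap, an intermediate filament, went from 11.4 to 23.2 CPM (1.03, SE 0.15, adjusted p = 1.67e-04) and Entpd2, an ATP-degrading enzyme, from 9.34 to 18 CPM. By the labels naive mice carried a Gfap-cre transgene that IM72h mice lacked, so line and operation cannot be told apart for Gfap. S100b (39.1 to 22.5 CPM), Ngfr, Kcna1 and Fabp7 fell. Sox10, the transcription factor of the glial lineage, was at 19.2, 16.5 and 15.2 CPM in naive and 75.6, 103, 140 and 33.6 CPM in IM72h libraries (2.37, SE 0.40, adjusted p = 4.41e-04), with an uneven IM72h group. The Sox10 transgene is present in IM72h and IM24h mice and absent from naive and IM3h mice by the labels, and between IM72h and IM24h Sox10 did not pass the test (0.73, adjusted p = 0.181). At IM3h, in mice without that transgene, Sox10 was above naive ME as well (0.68, SE 0.16, adjusted p = 0.00928). The part of the transgene in these values was not tested, and at IM72h it cannot be told apart from the operation.

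The study's own panel of acute enteric gliosis genes was chosen on samples of this series and so gives no independent evidence of a direction. Of its 210 tested genes 100 were higher and 42 lower at IM72h (median 0.46, -0.16 under the reference gene scale), the 42 becoming 27 without naive library 3. With the library total 142 were higher and 12 lower, and with the reference genes 63 and 71. The same panel had 158 of 200 genes higher at IM3h and 115 of 204 at IM24h, where 19.3% and 15.6% of all genes were. From IM24h to IM72h 91 of 206 fell and 23 rose, beside 19.9% and 18.6% of all genes.

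Immediate early genes, the transcription factors and their regulators that are switched on within minutes of a stimulus, had all been higher at IM3h (20 of 20, where 19.3% of all genes were). At IM72h 7 of 20 were higher, a share close to the 29.3% of all genes, and 1 was lower, where 28.3% of all genes were. With the reference genes as the scale 3 were higher and 6 lower. Scaled over all 14 libraries, Fos was at 78.5 to 209 CPM in the IM3h libraries and at 3.53 to 6.10 CPM at IM72h, beside 2.49 to 7.68 CPM in naive ME. Junb, an AP-1 subunit, stayed up, at 18.2, 12.2 and 19.9 CPM in naive and 119, 104, 90.5 and 138 CPM in IM72h libraries (log2 fold change 2.73, SE 0.20, adjusted p = 1.71e-06). Jund and Jun did not pass the test.

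Among adrenergic receptors, through which sympathetic nerves act on the gut wall, 3 of 5 tested genes were lower, whereas with the library total as the scale 1 (Adra1a) was lower and 1 (Adrb1) higher, and with the reference genes all 5 were lower. Adrb3 was at 52.1, 44.9 and 53.0 CPM in naive and 23.4, 34.4, 38.3 and 26.0 CPM in IM72h libraries (log2 fold change -0.71, SE 0.17, adjusted p = 0.00425, but 0.185 with all 14 libraries in the fit). Adra2b went from 9.80 to 17.4 CPM to 4.16 to 7.97 CPM (-0.92, SE 0.28, adjusted p = 0.0140, no longer called without naive library 2), and Adra1a from 2.67 to 4.34 CPM to 0.683 to 1.58 CPM (-1.71, SE 0.37, adjusted p = 0.00222). Adrb1 was at 24.4 to 31.6 CPM and 25.3 to 29.7 CPM and Adra2a at 6.90 to 9.74 CPM and 5.85 to 9.04 CPM, and neither passed the test. Both rose from IM24h to IM72h, Adrb1 by 0.80 (SE 0.20, adjusted p = 0.00988) and Adra2a by 0.87 (SE 0.31, adjusted p = 0.0479).

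Genes of energy metabolism and of protein synthesis moved apart. Of 38 nuclear genes of the respiratory chain 24 were lower and 4 higher (median -0.56, but 0.04 with the library total as the scale), and 12 of 13 protein-coding genes of the mitochondrial genome were lower and none higher (median -1.89). The mitochondrial share of the counts fell with the ribosomal RNA share, as described above, and the part of RNA make-up in this result was not tested. mt-Co3, a subunit of cytochrome c oxidase, was at 19409, 15003 and 16970 CPM in naive and 7274, 6520, 6840 and 8398 CPM in IM72h libraries (log2 fold change -1.24, SE 0.15, adjusted p = 4.04e-05), and mt-Nd4 overlapped between the groups. Of 73 cytosolic ribosomal protein genes 50 were higher and 2 lower (0 to 6 lower with single libraries left out, median 0.69, 0.08 under the reference gene scale), and their summed level went from 21409 to 24958 CPM to 39411 to 44830 CPM. Rps9 was at 713, 564 and 670 CPM and then at 2667, 2288, 2206 and 1713 CPM (1.77, SE 0.17, adjusted p = 9.31e-06). Ribosomal protein genes have many processed pseudogenes, so that the split of reads between copies leaves single members uncertain. Rpl22, the RiboTag target, was lower (211 to 269 CPM against 167 to 185 CPM, -0.47, adjusted p = 0.00476) except with the library total as the scale, where the difference was 0.12.

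Of 19 cholesterol synthesis genes 5 were higher and 9 lower, with 8 and 2 for the library total and 1 and 11 for the reference genes as the scale. Hmgcs1, the enzyme that opens the pathway, fell from 108 to 131 CPM to 40.1 to 54.2 CPM (log2 fold change -1.27, SE 0.13, adjusted p = 1.62e-05), and Insig1, which restrains it, from 26.8 to 56.3 CPM to 5.77 to 10.3 CPM (-2.13, SE 0.27, adjusted p = 6.69e-05).

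Markers of cells that can adhere to a dissected ME were checked as well. Mesothelial genes were lower for 7 of 10 members (median -1.30, 4 lower and 1 higher with the library total as the scale), Upk3b falling from 41.1, 53.6 and 63.4 CPM to 8.23, 16.3, 29.0 and 14.9 CPM (log2 fold change -1.62, SE 0.32, adjusted p = 0.00131, but 0.0576 with all 14 libraries in the fit). Adipocyte genes were lower for 8 of 10 members, all by more than 2-fold (median -1.93). Fabp4, the fatty acid binding protein of fat cells, was at 288, 200 and 317 CPM in naive and 38.7, 62.6, 44.0 and 71.4 CPM in IM72h libraries (-2.31, SE 0.22, adjusted p = 1.08e-05), and the hormone gene Adipoq went from 67.6 to 9.28 CPM. Of 16 mucosal genes 5 were higher, a share close to that of all genes, and 1 lower (2 and 5 with the reference genes), and most overlapped between the groups, the 1 lower gene (Reg3g) becoming 5 without naive library 3. Fabp1, of the enterocyte, was at 5.62 to 14.1 CPM and 31.4 to 81.2 CPM (2.63, SE 0.38, adjusted p = 1.67e-04). None of 9 tested pancreatic acinar genes passed the test by edgeR, 0 had an unadjusted p under 0.05 and 0 were called by DESeq2, their summed level ranging from 2.12 to 71.0 CPM within naive and 3.22 to 74.1 CPM within IM72h libraries. Without IM72h library 4, 1 of the 9 was called higher. Of 5 red blood cell genes Hbb-bs was called lower, a call lost without IM72h library 1 or 3 and with all 14 libraries in the fit, and without naive library 3 none was lower and 3 were higher. The part of such admixed tissue in the other results was not tested. Wherever none of a list is given as moving in a direction, 0 members did so at an unadjusted p under 0.05 and 0 by DESeq2 as well.

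The 15 largest rises among genes with at least 5 CPM at IM72h held 6 genes of mitosis and the cell cycle (Nek2, Iqgap3, Pbk, Pimreg, Cep55 and Cenph), a histone gene (Hist1h2ao), 5 genes of innate immunity and inflammation (Cxcl5, Saa3, S100a9, Cd300lf and Mmp12) and 3 others. For 10 of the 15 no naive library held more than 3 counts, so their order is not a ranking of sizes. Saa3, an acute-phase serum amyloid made in inflamed tissue (chr7:46711998-46715700, minus strand), was at 2.36, 2.67 and 2.12 CPM in naive and 513, 274, 268 and 150 CPM in IM72h libraries, a rise of 128-fold (log2 fold change 7.0, SE 0.47, adjusted p = 1.08e-06). Saa3 had been at 287 to 847 CPM in the IM24h libraries on the scale of all 14. Capn12, a calpain protease gene (chr7:28881422-28893563, plus strand), was without a count in the naive libraries and was at 327, 167, 242 and 9.20 CPM at IM72h, at least 395-fold higher on average. Its 3′ end overlaps that of the abundant Actn4 on the opposite strand, which was at 322 to 347 CPM in naive and 359, 532, 525 and 671 CPM in IM72h libraries. The part of Actn4 reads in the Capn12 counts was not tested. Capn12 was also above naive at IM24h (edgeR adjusted p = 0.00153) and did not pass the test between IM24h and IM72h (log2 difference -0.01, adjusted p = 0.997). Operation, Cre line and library name range cannot be told apart for it. Xkr5 and Ceacam2 had no count in naive ME and were at 4.56 to 6.88 CPM and 3.06 to 6.83 CPM, at least 11.9-fold and 11.7-fold higher.

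Of the 15 largest falls, 6 were structural RNAs: the mitochondrial rRNAs mt-Rnr1 and mt-Rnr2, the 5.8S rRNA n-R5-8s1, and Rn7s1, Rn7s2 and Rn7s6, copies of the signal recognition particle RNA. mt-Rnr2 was at 55661, 84664 and 51236 CPM in naive and 4196, 2996, 3152 and 3361 CPM in IM72h libraries (log2 fold change -4.22, SE 0.22, adjusted p = 3.55e-07), and the long non-coding RNA gene AY036118 on chromosome 17, one of the genes counted above as overlapping rRNA, went from 186948 to 492081 CPM to 19809 to 30634 CPM (-3.57, SE 0.32). The share of such RNAs in each library is given above, and its part in other results was not tested. The histone genes H2ac18 and H1f4 fell in the same range (-5.49 and -4.71), and how well 3′ libraries capture histone RNA was not tested. Sncg (gamma-synuclein), a small protein of peripheral neurons and fat cells (chr14:34370274-34374789, minus strand), was, of these 15, the largest fall of a gene that is neither a structural RNA nor a histone gene, at 62.9, 54.3 and 57.6 CPM and then at 1.78, 1.52, 2.13 and 3.02 CPM (-4.76, SE 0.20, adjusted p = 1.75e-07). Fth1, the ferritin heavy chain, was at 1288, 939 and 1432 CPM and then at 29.2, 58.6, 45.7 and 187 CPM (-3.93, SE 0.53, adjusted p = 9.48e-05), but has processed pseudogenes that can share its reads. Apex1, Car14, Pitrm1, Kcnip1 and Fam221b, the remaining falls, are each overlapped by a protein-coding gene on the opposite strand, as are 3 of the 15 rises.

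Other lists are set here against the 18.6% of all genes that rose and the 19.9% that fell from IM24h to IM72h, within the Sox10 line. Of 38 genes of the nuclear respiratory chain 14 rose and 2 fell, although 24 were lower than in naive ME. Of 21 interferon response genes 14 rose and 1 fell, of 15 resident macrophage genes 7 rose and 1 fell, of 73 ribosomal protein genes 22 rose and 3 fell, and of 33 matrix genes 13 rose and 5 fell. Of 10 fibroblast genes 7 rose and of 16 mucosal genes 8 rose. Of 20 enteric neuron genes 3 rose and 6 fell, of 12 enteric glia genes 4 rose and 1 fell, and of 9 adipocyte genes 2 rose and 1 fell. The counts of neuron and adipocyte genes lie near those shares. The comparisons with naive ME share the same 3 naive libraries, so the values at the 3 times are set side by side without a test of their likeness. The number of tested members also differs between the times. In the order IM3h, IM24h and IM72h, list medians of MHC class II (0.52, 0.96 and 2.35), the interferon response (0.24, 0.58 and 1.44) and DNA replication and mitosis (0.71, 1.69 and 3.49) were highest at IM72h. That of the smooth muscle list (-0.24, -1.36 and -0.51) was farthest from 0 at IM24h, and that of immediate early genes (3.07, 1.06 and 0.10) at IM3h.

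**Figure D4:**
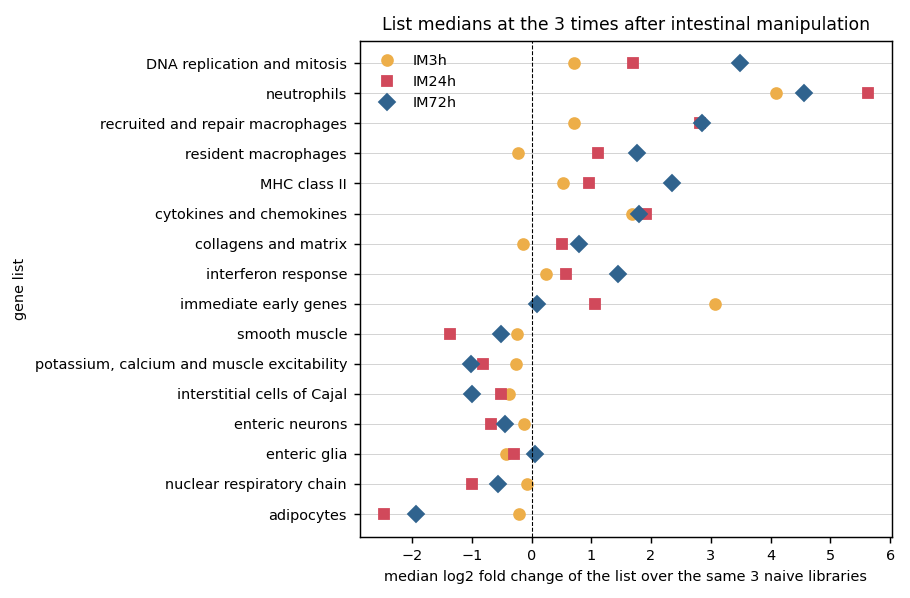
Median log2 fold change (x axis) of 16 gene lists (y axis) at IM3h (circles), IM24h (squares) and IM72h (diamonds), each over the same 3 naive libraries and under TMM scaling; the number of members tested differs between the times, and the neutrophil median at IM72h is 3.07 with members near 0 at their lower bound. Among others, the diamonds of DNA replication and mitosis, MHC class II and the interferon response lie to the right of their circles and squares, while with the library total as the scale the IM72h medians of smooth muscle, enteric neurons and the nuclear respiratory chain were above 0, and with the reference genes those of immediate early genes and enteric glia below 0.

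**Figure D5:**
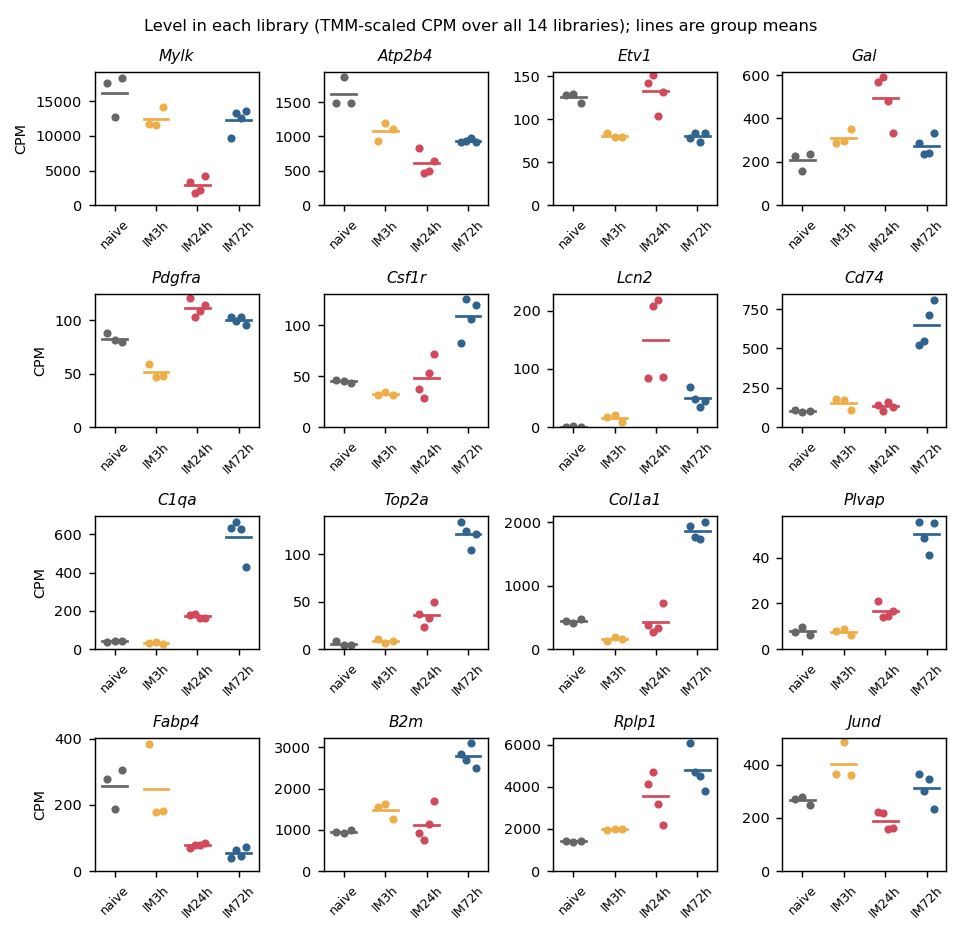
Level (y axis, CPM scaled over all 14 libraries, starting at 0) of 16 genes in each library by group (x axis); points are libraries and lines are group means. Cd74, C1qa, Top2a, Col1a1 and Plvap are higher in every IM72h library than in every other library, whereas Mylk is lowest at IM24h under this scaling.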

How the data were processed

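Whole ME RNA of naive mice (n = 3) and of mice at 3 h (n = 3), 24 h (n = 4) and 72 h (n = 4) after IM had been made into 3′ libraries (QuantSeq), trimmed with cutadapt, aligned to mm10 with STAR and quantified in Partek Flow on Ensembl transcripts by the authors. They deposited estimated counts per gene and per transcript, of which 31.0% and 67.0% of the values were not whole. The tables list features with a total of at least 10 counts. Rows were assigned to groups by the operation named in the table.

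Estimated counts were rounded, filtered with filterByExpr, scaled by TMM and tested with the quasi-likelihood test of edgeR 4.0.16 in R 4.3.3, two-sided, with Benjamini-Hochberg adjustment over all genes tested and a threshold of 0.05. The groups were fitted pairwise, without covariates, and levels are CPM with the TMM factor. Levels at several times were scaled over all 14 libraries. Genes with at most 3 counts in each naive library are given as lower bounds, with 3 counts per library as the floor (0.471 CPM over the naive and 0.227 CPM over the IM72h libraries), which covers counting error only. With totals of 6603170 to 12866062 counts, genes near 1 CPM rest on few counts. Libraries of a group differed by more than counting error (chi-square per degree of freedom 5.433 to 60.34), so none was merged. The code was tested on simulated data.

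Of the gene lists, the text names the 2 members with the highest level and the 1 with the largest change, besides all adrenergic receptors and the 15 largest rises and falls with at least 5 CPM in the higher group, no overlap and a symbol that is not a predicted, clone or pseudogene name. A few genes that this rule or a list holds are not reported here. Other genes named were chosen after their values were seen. Members and lists were chosen with earlier results of these data known. Alternatives were DESeq2 1.42.0, other scalings, no filter, all libraries in 1 fit, the transcript table, rRNA genes left out and each library left out. Annotation came from GENCODE vM21 and promoter windows from RefSeq (GRCm38.p6).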

Additional observations from a re-analysis of the deposited data

Results flagged for a closer look

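In 9 of 141 genes examined, 1 of the 4 IM72h libraries stood apart from the other 3 by Dixon's criterion, which chance meets in about 1 in 20 groups. The genes are not independent, and all 9 cases lay in IM72h library 4 (6 genes) or library 1 (3 genes). Counts of IM72h library 4 differed from those of the other 3 by a chi-square of 21.97 to 41.15 per degree of freedom, against 5.433 to 15.85 among these. Naive library 2 stood further apart, at 50.71 from naive library 1 and 60.34 from naive library 3, against 7.383 between libraries 1 and 3. IM72h library 4 was high for Rpl5 (342 CPM, the others at 169 to 185), Dcn (1023 CPM, the others at 826 to 857), Kcnip1 (1.84 CPM, the others at 0.509 to 0.531) and H2ac18 (1.25 CPM, the others at 0 to 0.0759). It was low for C1qa (418 CPM, the others at 607 to 643) and Tpsb2 (0.723 CPM, the others at 2.20 to 2.63). IM72h library 1 was low for Fabp1 (31.4 CPM, the others at 78.4 to 81.2), Ceacam2 (3.06 CPM, the others at 6.11 to 6.83) and Car14 (0.764 CPM, the others at 1.05 to 1.06).

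The most abundant member of each list, where it is reported here, was also tested between IM72h and IM24h, which differ in their change from the same naive libraries by that contrast (edgeR, adjusted p under 0.05, log2 scale). On the muscle side, Mylk (2.02), Myl9 (1.82) and the calcium pump gene Atp2b4 (0.52) were higher at IM72h, and Etv1 (-0.82), of interstitial cells of Cajal, was lower. Among genes of nerve cells, the neuropeptide gene Gal was lower (-0.94). Of immune genes, Csf1r (1.09), C1qa (1.69), Cd74 (2.20), B2m (1.22), Zbtb46 (1.19) and Igha (2.55) were higher, and Lcn2 was lower (-1.68). The part of admixed mucosa in the Igha difference was not tested. Among stromal and vascular genes Col1a1 (2.04), Dcn (0.81) and Plvap (1.51) were higher. Of the remaining lists, Top2a (1.67), Jund (0.62), mt-Nd4 (1.0) and Apoa1 (2.81), the lipoprotein gene of the mucosal epithelium list, were higher, and Hmgcs1 (-0.63) and Fabp4 (-0.58) lower.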

How the results depend on the processing

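The scale decided how many genes were called in each direction. With the library total as the scale 8509 genes were higher and 1964 lower than naive (5643 and 1148 by more than 2-fold), and with the reference genes 2013 and 7981 (1305 and 5393), where TMM gave 4855 and 4689 (2767 and 2534). Between IM72h and IM24h, 1245 genes were higher with the reference genes against 3024 under TMM. With single libraries left out, 4318 to 4855 genes were higher and 4138 to 4779 lower than naive (2569 to 2773 and 2398 to 2663 by more than 2-fold), and 2318 to 3602 were higher and 2556 to 3564 lower than at IM24h. DESeq2 (4743 higher), size factors (4842), all 14 libraries in 1 fit (3874), no filter (5604), the transcript table (4849), rRNA genes left out (4911) and, chosen after seeing the data, rRNA and mitochondrial genes left out (4938) stayed within 1.5 times.

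Log2 fold changes of single genes turned positive with the library total for Mylk (0.08), Dcn (0.48), Timp2 (0.59), Atp5a1 (0.23), Adrb1 (0.57), Actb (0.41), Ddx3y (0.55) and Rpl22 (0.12). They turned negative with the reference genes for Pdgfra (-0.44), Uchl1 (-0.17), Sparc (-0.07), C3 (-0.40), Jund (-0.50), Eif2s3y (-0.14) and Hsp90ab1 (-0.20). For Hba-a2 they ran from -0.30 to 0.75 with single libraries left out, the highest without naive library 3. With all 14 libraries in 1 fit, 14 of 141 named genes lost their call (Mylk, Uchl1, Trac, Cd3d, Cd79b, Tpsb2, Xcr1, Upk3b, Muc16, Hbb-bs, Sparc, Adrb3, Eif2s3y and Hsp90ab1, with adjusted p from 0.0518 to 0.191), and the cause was not tested.

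No paired analysis was possible because the rows of the count tables carry no replicate number of the labels. The Cre line differs between naive and IM72h mice and cannot be told apart from the operation.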

Other observations

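Replication-dependent histone genes, a set chosen after their values were seen, were examined beside the genes of cell division, without a test between the sets. Of 18 tested genes 5 were higher and 7 lower at IM72h (median log2 fold change -0.23), beside 29.3% and 28.3% of all genes. With the library total 8 were higher and 5 lower, and with the reference genes 2 and 10. H3c14, which encodes histone H3, was at 22.4, 19.4 and 17.5 CPM in naive and 6.11, 6.90, 6.91 and 5.65 CPM in IM72h libraries (log2 fold change -1.63, SE 0.16, edgeR adjusted p = 1.51e-05), all IM72h libraries lying below all naive ones. H4c9, which encodes histone H4, went the other way, from 3.72, 4.0 and 3.75 CPM to 12.5, 11.4, 11.0 and 7.88 CPM (1.48, SE 0.23, edgeR adjusted p = 2.23e-04). Histone genes are near-identical copies of each other, so the split of reads between them is uncertain. How well 3′ libraries capture histone RNA was not tested, so these counts are not read as histone expression.

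Among genes with predicted names, which the naming rule left out, 2 pseudogenes were picked after their values were seen. Gm15536, a processed pseudogene that lies opposite Ipcef1 (chr10:7038661-7038774, plus strand), was at 46.9, 41.8 and 37.6 CPM in the naive libraries and without a count in the IM72h libraries, at least 186-fold lower. It was also without a count in the IM24h libraries and was at 5.63 to 37.5 CPM in the IM3h libraries on the scale of all 14. Time after IM, Cre line and library name range cannot be told apart here. Gm10925, an unprocessed pseudogene (chr1:24613974-24614651, minus strand), was at 480, 193 and 688 CPM in naive and at 0, 0, 0 and 0.526 CPM in IM72h libraries, beside 0 to 140 CPM at IM24h.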
